A study of Mus musculus with 7 samples.

Results

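The genes described belong to the sodium-potassium pump (Na,K-ATPase): 2 regulators of the FXYD family, Fxyd3 and Fxyd6, and the 3 β subunits Atp1b1, Atp1b2 and Atp1b3. They were taken by gene symbol, 1 transcript cluster (the array's unit for a gene) each, so that 5 of 22198 transcript clusters, or 5 of 19498 named symbols, are described. All 5 were found, and each symbol had 1 transcript cluster. They were chosen by pathway with their KO and WT signals on these arrays already known. The KO and WT values of the members are therefore a description, and no test is given for them.

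Signals were measured on Affymetrix Clariom S arrays in β-cells of 2-week-old mice, with 4 arrays of Raptor knockout (KO) and 3 of wild type (WT), on a background the labels give as C57BL/6 and to which the Cre line brought 129/SvJ. KO animals were Raptor-/-, RIP-Cre, Rosa26 GFP, and the age-matched WT littermates were Raptor+/+, RIP-Cre, Rosa26 GFP, so that both groups carried the Cre driven by the rat insulin promoter and the green reporter. Raptor is the defining subunit of mTOR complex 1, and the comparison asks which genes depend on it before blood glucose rises. Each array held RNA pooled from several animals, males by the methods, after sorting of green islet cells, so that p-values measure the spread between pools. In RNA of a sorted population, fewer cells of a type and less RNA per cell cannot be told apart.

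The sodium-potassium pump uses ATP to carry sodium out of the cell and potassium in. Its α subunit does the transport, its β subunit is a glycoprotein needed to fold the α subunit and bring it to the surface, and FXYD proteins are small membrane proteins that bind the complex and tune its affinity for ions. In β-cells the ion gradients it makes underlie the membrane potential on which calcium entry and insulin release depend. Atp1a4, the α subunit of testis, lay at percentile 1.14 of all mean signals.

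The start regions of the 2 FXYD regulators are shown as the identity of the family pair. Their means differed in opposite directions between KO and WT, though the groups overlapped for Fxyd6. Each line gives the 250 bases before the start of the gene in RefSeq (build GRCm38.p6), at chr7:31076698-31076947 on the minus strand for Fxyd3 and chr9:45369935-45370184 on the plus strand for Fxyd6. Capitals mark every match, on either strand, to the TATA box TATAAA, the box CCAAT, the GC box GGGCGG, the E-box CACGTG and its wider form CANNTG, which includes it, the Maf core TGCTGA or the C/EBP form TTGCNNAA.
Fxyd3: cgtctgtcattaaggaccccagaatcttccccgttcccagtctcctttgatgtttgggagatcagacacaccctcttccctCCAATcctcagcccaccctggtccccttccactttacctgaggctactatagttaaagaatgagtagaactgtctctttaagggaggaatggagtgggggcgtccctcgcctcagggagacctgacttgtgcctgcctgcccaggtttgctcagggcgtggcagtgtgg
Fxyd6: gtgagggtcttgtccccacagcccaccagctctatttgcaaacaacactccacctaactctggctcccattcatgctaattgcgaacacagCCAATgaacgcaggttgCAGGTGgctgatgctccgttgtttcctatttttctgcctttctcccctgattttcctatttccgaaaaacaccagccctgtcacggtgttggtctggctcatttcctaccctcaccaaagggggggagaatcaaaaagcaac

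Both windows held 1 CCAAT, a box found in 33.8% of 32851 start regions of the same length, and Fxyd6 also held 1 CANNTG (66.2% of start regions). Neither held the TATA box (in 12.4% of start regions), the GC box (32.7%), the narrow E-box (6.02%), the Maf core (16.1%) or the C/EBP form (9.56%). Each held 5 CpG, near the median of 6 over all start regions. The windows of Atp1b1 and of the first of 2 starts of Atp1b3 held 24 CpG each. Of the 5 members 4 matched an entry of the start region table. Nothing bound to these regions was measured.

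The brightest signals shared an upper limit on 6 of the 7 arrays, and the 5 members lay below it on every array. The arrays labelled KO replicates 3 and 4 and WT replicate 3 stood apart: their median r over all transcript clusters was 0.924 to 0.937, while KO and WT replicates 1 and 2 had 0.954 to 0.961. The β-cell gene Ins2 and the α-cell gene Gcg were both at the upper end of the scale on all 7 arrays, where no difference could be seen, and acinar markers varied from 7.47 to 15.99 in their mean. Rptor itself ran from 4.40 to 8.54 on KO arrays and from 5.26 to 6.08 on WT arrays, with its highest value on the array labelled KO replicate 4. Whether its probes fall inside the deletion is unknown here, so that its signal checked no label, and every direction follows the labels. The mean of 3 Y-linked genes was 4.52 on KO replicate 4 and 4.42 on WT replicate 3, against 7.49 to 8.89 on the other 5 arrays. The methods name only male animals, and why these values were low was not tested. Fxyd3 and Atp1b2 were highest on KO replicate 4, and Fxyd6 was highest on WT replicate 3. Whether sex had a part in the signals of the members was not tested.

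Fxyd3 was higher in KO on every array. Its product is a regulator of the pump found mainly in epithelia, and in mouse islets it has been described as a brake on glucose-stimulated insulin secretion. The log2 signal was 11.23, 10.99, 11.68 and 11.91 on KO arrays, against 9.77, 10.01 and 9.89 on WT arrays. The groups did not overlap, and the lowest KO array (replicate 2) was 0.98 above the highest WT array (also replicate 2). The WT arrays lay within 0.23 of one another and the KO arrays within 0.92. The means were 11.45 ± 0.42 in KO (SD, n = 4) and 9.89 ± 0.12 in WT (SD, n = 3), a difference of 1.56 ± 0.27 (SE) or 2.95-fold.

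Atp1b2 was also higher in KO on every array, though by a narrow margin. It encodes the β2 subunit, best known as an adhesion molecule of glia. The log2 signal was 9.24, 8.89, 9.38 and 9.77 on KO arrays, against 8.49, 8.81 and 8.32 on WT arrays. KO replicate 2 was the lowest of its group and only 0.077 above WT replicate 2, the highest of its own. The means were 9.32 ± 0.36 in KO (SD, n = 4) and 8.54 ± 0.25 in WT (SD, n = 3), a difference of 0.78 ± 0.27 (SE) or 1.72-fold. On the 4 arrays most alike, KO and WT replicates 1 and 2, the difference was 0.415 for Atp1b2 and 1.23 for Fxyd3.

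**Figure D1:**
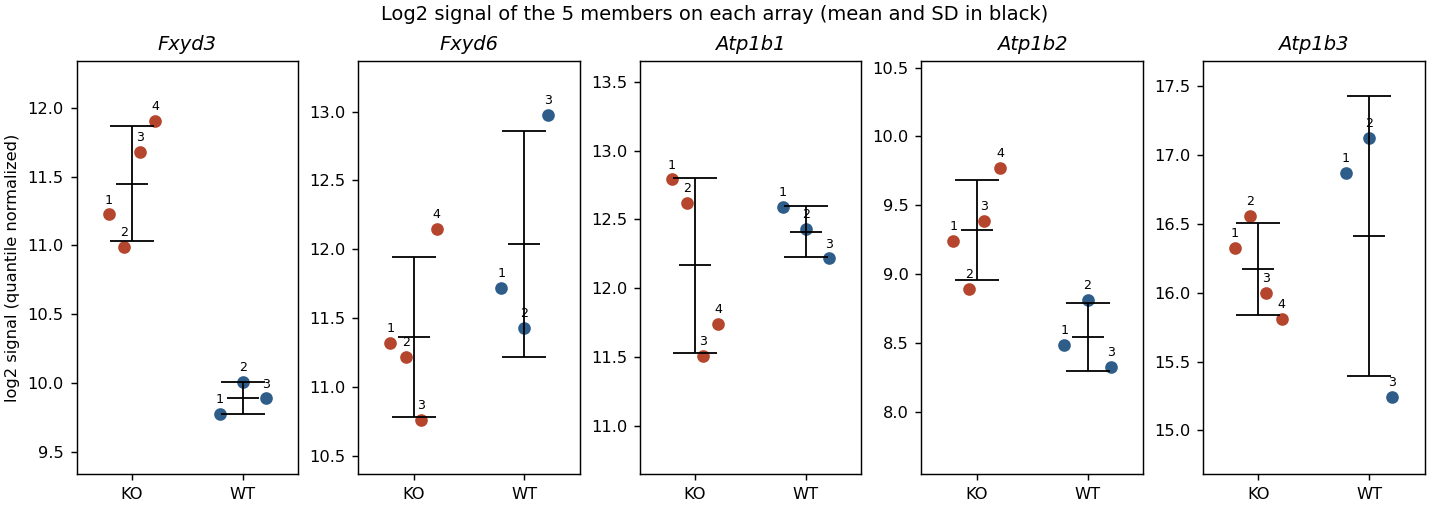
Log2 signal (vertical axes, each spanning 3 units) of the 5 genes on each array, KO at the left and WT at the right of each panel, with replicate numbers beside the points and the mean ± SD in black. Every KO array lay above every WT array for Fxyd3 and Atp1b2, and the groups overlapped for Fxyd6, Atp1b1 and Atp1b3.

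Fxyd3 and Atp1b2 ordered the KO arrays alike: replicate 4 was highest in both, then replicates 3, 1 and 2. Among WT arrays replicate 2 was the highest in both. Over the 7 arrays their Pearson r was 0.94, which holds the group difference and is given as a description only.

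Fxyd6, abundant in brain and known there as phosphohippolin, ran the other way in the means, with groups that overlapped. The log2 signal was 11.32, 11.22, 10.76 and 12.15 on KO arrays, against 11.72, 11.43 and 12.97 on WT arrays. KO replicates 1 to 3 lay below every WT array, and the array labelled KO replicate 4 lay between WT replicates 1 and 3. The means were 11.36 ± 0.58 in KO (SD, n = 4) and 12.04 ± 0.82 in WT (SD, n = 3), a difference of -0.68 ± 0.46 (SE). WT replicate 3 set much of its size, since the difference was -0.21 without that array and -0.98 without WT replicate 2.

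WT replicate 3 also had high signals of genes of catecholamine synthesis. Of the 9 glial and neuronal markers 6 were measured, 1 of them above WT, and their mean was 5.40 to 5.58 on KO arrays and 5.42 to 7.82 on WT arrays, the highest on WT replicate 3. The defining glial markers were dim, Sox10 at 5.60 in KO and 5.71 in WT and S100b at 4.10 in KO and 4.61 in WT. The gene of dopamine β-hydroxylase, Dbh, was 4.97 to 6.44 on KO arrays and 4.94 and 5.35 on WT replicates 1 and 2. On WT replicate 3 it was 14.24. Th, which encodes tyrosine hydroxylase, was 6.97 to 8.75 on KO arrays and 8.46 and 8.67 on WT replicates 1 and 2. On WT replicate 3 it was 11.69. Dbh and Th were picked out after their values were seen. Their part in the Fxyd6 signal was not tested. Fxyd3 was 9.89 on that array, between the other WT arrays.

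Atp1b1, the most widespread of the β subunits, split the KO arrays. The log2 signal was 12.79, 12.62, 11.51 and 11.74 on KO arrays, against 12.59, 12.43 and 12.22 on WT arrays. KO replicates 1 and 2 lay above all 3 WT arrays and KO replicates 3 and 4 below them, and the WT range of 0.37 was narrower than the KO range of 1.28. The means were 12.17 ± 0.63 in KO (SD, n = 4) and 12.41 ± 0.19 in WT (SD, n = 3), a difference of -0.25 ± 0.36 (SE). It was -0.02 without KO replicate 3 and 0.19 on the 4 arrays most alike, the 1 change of sign among 15 alternative settings. The difference was smaller than its SE.

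Atp1b3, the β3 subunit, also known as the surface antigen CD298, was the member with the widest spread in WT. The log2 signal was 16.33, 16.56, 16.00 and 15.81 on KO arrays, against 16.87, 17.12 and 15.24 on WT arrays. All 4 KO arrays lay inside the WT range, with WT replicates 1 and 2 above them and WT replicate 3 below. The means were 16.17 ± 0.33 in KO (SD, n = 4) and 16.41 ± 1.0 in WT (SD, n = 3), a difference of -0.24 ± 0.47 (SE). Its sign depended on single arrays, at 0.12 without WT replicate 2 and -0.83 without WT replicate 3.

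Arrays with equal numbers in their titles can also be set side by side. In Fxyd3 the KO array was above the WT array of its number by 1.45, 0.98 and 1.79 for numbers 1, 2 and 3. In Atp1b2 these differences were 0.76, 0.077 and 1.06, all positive but nearly nil for number 2. Fxyd6 was the lower in KO for all 3 numbers, by differences of -0.40, -0.21 and -2.21. Atp1b1 gave 0.20, 0.19 and -0.71, and Atp1b3 -0.54, -0.57 and 0.75, so that number 3 ran against the others in both.

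Set beside the whole array, 2 of the 5 members had KO and WT arrays that did not overlap, both higher in KO. The background was 872 of 22198 transcript clusters, or 3.93%, with 439 higher (1.98%) and 433 lower (1.95%) in KO. As these values were known when the members were chosen, nothing is read from that count. The middle 90% of all differences ran from -0.71 to 0.68. Fxyd3 lay at percentile 99.7 of all differences, Atp1b2 at 96.3, Atp1b3 at 23.3, Atp1b1 at 22.8 and Fxyd6 at 5.38. All 5 were bright, at percentiles 84.7 (Atp1b2) to 99.4 (Atp1b3) of the mean signal.

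**Figure D2:**
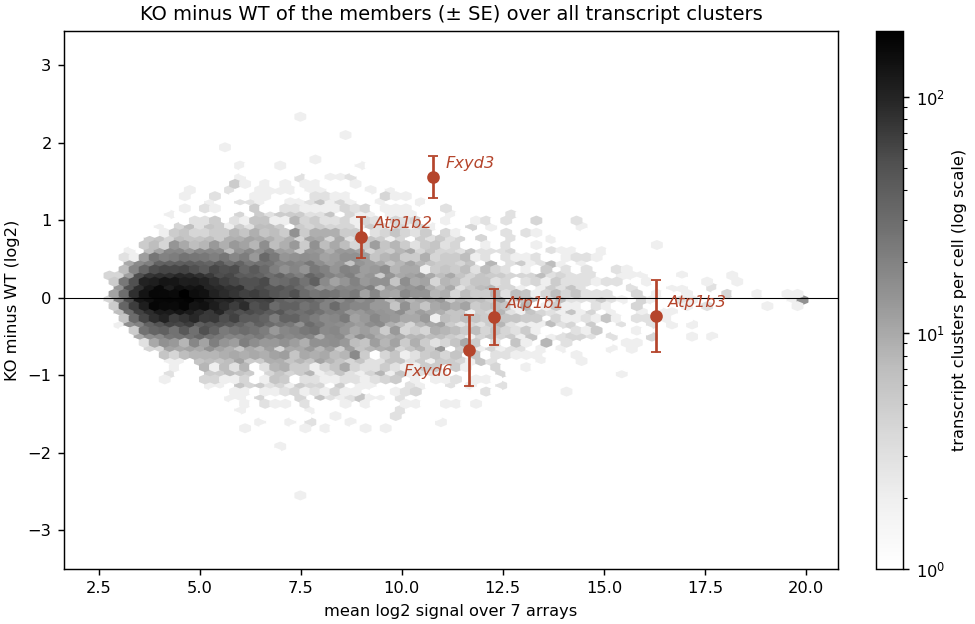
KO minus WT difference (log2, vertical axis) against the mean log2 signal over the 7 arrays (horizontal axis) for all 22198 transcript clusters in grey, with the 5 genes in red and bars of ± SE. Fxyd3 sits at 1.56 near the upper edge of the cloud and Atp1b1 and Atp1b3 at -0.25 and -0.24.

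Spread between arrays of one group differed among the members. It comes from the same values that were known when they were chosen. The SD within groups was 0.33 for Fxyd3 and 0.32 for Atp1b2, at percentiles 33.4 and 31.9 of all transcript clusters, and so below the median SD of 0.43. It was 0.51 for Atp1b1 (percentile 59.7), 0.69 for Fxyd6 (percentile 75.8) and 0.69 for Atp1b3 (percentile 76.4).

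The other measured genes of the pump family showed no difference past the test. A list of 17 such genes, other α, β and FXYD members, the pump-interacting Nkain proteins and the related proton-potassium pumps, had 13 measured, 8 above and 5 below WT. Their median difference was 0.08, against 0.00262 over all transcript clusters, and the range was -0.22 to 0.36. None had an unadjusted p below 0.05 in limma, where 2.18% of all transcript clusters did (1.01% higher and 1.17% lower in KO) 484 in all, and 0% passed an adjusted p of 0.05 in limma or in the methods' t-test. Atp1a4 had the smallest p (unadjusted limma p 0.0935, adjusted p 1), at a dim 3.42 ± 0.11 in KO and 3.06 ± 0.12 in WT with no overlap. Nkain1 came next, at 5.60 ± 0.43 in KO and 5.24 ± 0.30 in WT (unadjusted limma p 0.264, adjusted p 1). Atp1b4, a muscle protein related to the β subunits, was 4.41 ± 0.25 in KO and 4.39 ± 0.51 in WT. Fxyd2, the γ subunit known from kidney, was 5.99 ± 0.20 in KO and 6.10 ± 0.20 in WT.

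**Figure D3:**
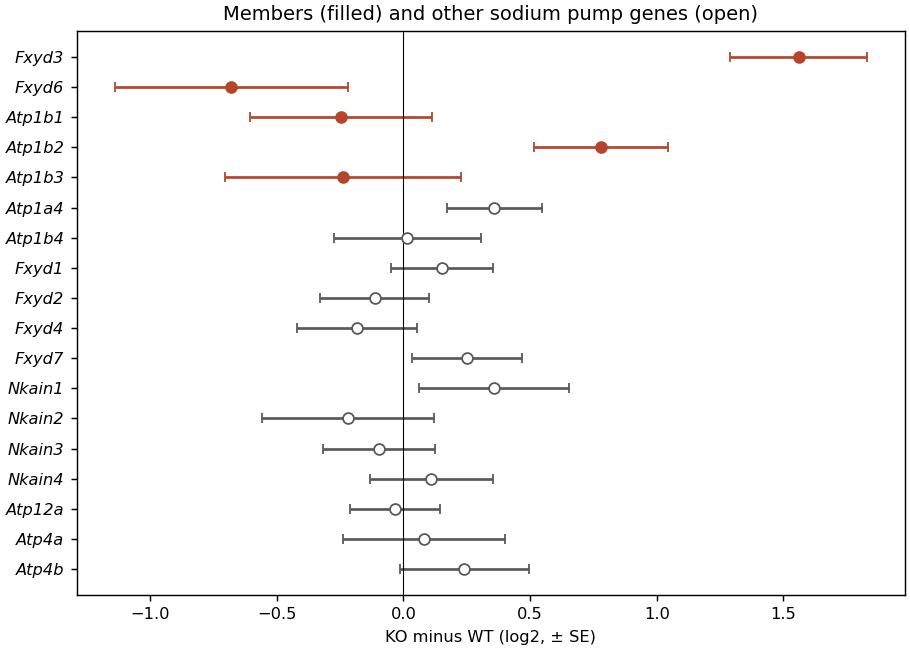
KO minus WT difference (log2, horizontal axis) with bars of ± SE for the 5 genes described (filled) and 13 other genes of the pump family (open). The open points lie between -0.22 and 0.36, and Fxyd3 at 1.56 and Atp1b2 at 0.78 lie to their right.

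Fxyd3 has relatives beside it on the chromosome. In the RefSeq gene order Lgi4, Fxyd1 and Fxyd7 lie on one side of it, and Hpn and Gramd1a on the other. These neighbours were looked at after the data were seen. Fxyd1 was 5.15 ± 0.18 in KO and 4.99 ± 0.13 in WT, and Fxyd7 7.27 ± 0.26 in KO and 7.02 ± 0.077 in WT, so that neither came near the difference of Fxyd3. Lgi4, whose RefSeq span overlaps the end of Fxyd3, was 4.39, 5.48, 4.53 and 11.61 on KO arrays, against 4.91, 4.41 and 4.41 on WT arrays. It was thus high on the array labelled KO replicate 4 alone, which also had the highest Fxyd3. Without that array the Fxyd3 difference was 1.41. The part of Lgi4 in the Fxyd3 signal was not tested.

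Genes of sodium exchange and cotransport, which share the sodium gradient with the pump, did not pass either. Of 26 listed 22 were measured, of which 12 lay higher and 10 lower in KO, and the median difference was 0.11, with none at an unadjusted limma p below 0.05. The potassium-dependent sodium-calcium exchanger Slc24a2 was 7.73 ± 0.51 in KO and 8.40 ± 0.35 in WT (unadjusted limma p 0.084, adjusted p 1). Slc24a1 was 4.70 ± 0.22 in KO and 4.34 ± 0.17 in WT (unadjusted limma p 0.124, adjusted p 1). Without KO replicate 1, Slc24a2 had an unadjusted limma p of 0.0225 and an adjusted p of 0.982.

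Among other P-type pumps, 13 of 14 were measured; 6 lay higher and 7 lower in KO, and the median difference was -0.12. Atp13a1, an ATPase of the endoplasmic reticulum, was the only gene of the 67 measured in the 4 lists with an unadjusted limma p below 0.05, a smaller share than the 2.18% of all transcript clusters, so that nothing is read from it. It was 7.59 ± 0.29 in KO and 8.22 ± 0.38 in WT, a difference of -0.63 ± 0.27 (SE) at an unadjusted limma p of 0.05 (0.0499965 in full) and an adjusted p of 1. That call was lost with median centring, cyclic loess, either filter on dim signals, the replicate block, the methods' t-test, trend and robust variances or the 4 arrays most alike, and without WT replicates 1 or 3 or any of KO replicates 1 to 3.

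A list of 20 kinases and trafficking proteins of the pump and its cotransporters had 19 measured, of which 9 lay higher and 10 lower in KO, the median difference was -0.00185, and none was past the unadjusted threshold. The scaffold gene Slc9a3r1 was 6.39 ± 1.0 in KO and 7.60 ± 1.3 in WT (unadjusted limma p 0.138, adjusted p 1). Sik2, a salt-inducible kinase, was 7.83 ± 0.85 in KO and 6.75 ± 1.4 in WT (unadjusted limma p 0.169, adjusted p 1).

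Other cell types could carry FXYD and pump genes, so their markers were set beside the members. Duct markers, the other epithelium of the pancreas, had 7 of 10 measured, 4 of them above WT, with a mean of 6.12 to 6.92 on KO arrays and 6.31 to 6.58 on WT arrays. Krt19 was 4.41 in KO and 4.01 in WT and Krt7 13.29 in KO and 13.50 in WT. Acinar markers had 15 of 17 measured and 12 above WT, with a mean of 9.23 to 15.99 on KO arrays and 7.47 to 15.14 on WT arrays. Markers of δ-, PP- and ε-cells were all 6 measured and all 6 above WT in the mean, though Pyy by only 0.007. Their mean was 13.89 to 15.47 on KO arrays and 12.72 to 14.70 on WT arrays. Of all transcript clusters 50.3% were above WT. No marker of these 3 lists had an unadjusted limma p below 0.05. The part of these cell types in the Fxyd3 and Atp1b2 differences was not tested.

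β-cell markers had 9 of 10 measured, 2 above WT, 6 below and Ins2 tied, with a mean of 13.58 to 14.90 on KO arrays and 14.62 to 14.99 on WT arrays. The lowest of these was the array labelled KO replicate 4, where Fxyd3 and Atp1b2 were highest. The glucose transporter gene Slc2a2 was 15.43, 14.67, 14.36 and 13.25 on KO arrays, against 16.64, 16.29 and 16.19 on WT arrays, lower in KO with no overlap and lowest on the array labelled KO replicate 4 (difference -1.94 ± 0.48 (SE), unadjusted limma p 0.00416, adjusted p 1). The zinc transporter gene Slc30a8 had a difference of -0.96 ± 0.38 (SE) with groups that overlapped (unadjusted limma p 0.0359, adjusted p 1). Both were picked out after their values were seen. The part of fewer β-cells or of lower β-cell genes in the differences of the members was not tested. α-cell markers (7 of 10 measured) had a mean of 10.87 to 11.65 on KO arrays and 11.02 to 11.47 on WT arrays. Markers of endothelium, mesenchyme and leukocytes had means between 4.45 and 6.41 on all arrays.

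**Figure D4:**
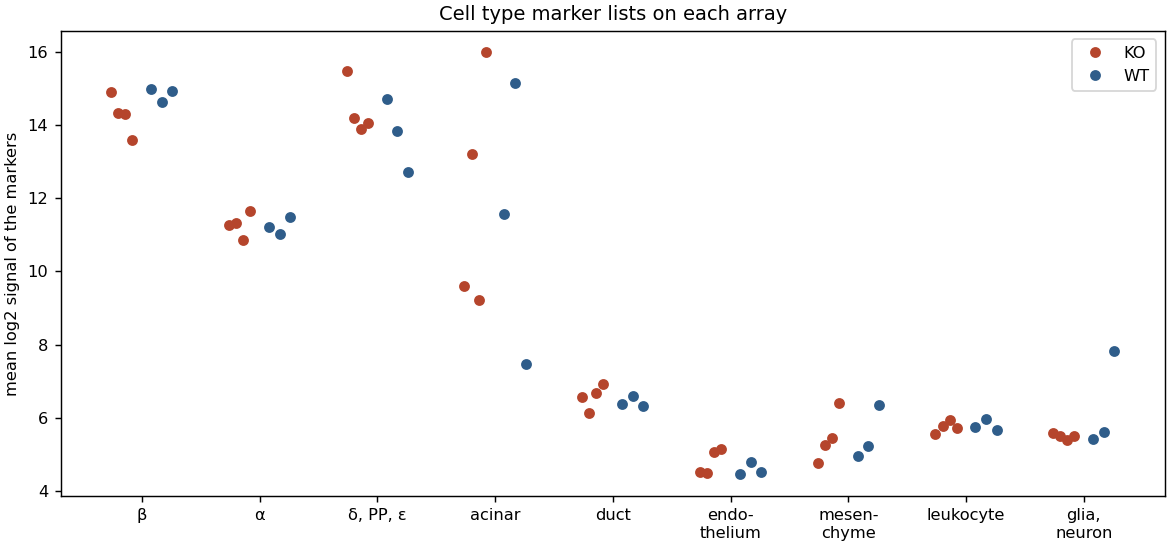
Mean log2 signal (vertical axis) of the measured markers of 9 cell type lists (horizontal axis), 1 point per array, with KO at the left and WT at the right of each list. KO and WT points overlap in all 9 lists, acinar markers vary most, and WT replicate 3 stands alone at 7.82 for glia and neurons.

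The genes whose signals followed the members most closely were sought among 9881 other named transcript clusters at or above the median signal, by Pearson r over the 7 arrays as a description. The 3 nearest to Fxyd3 were Poc1b (r 0.99), a centriole protein, Ankrd40 (0.96) and Dsel (0.96). Of the 9881, 16 had r above 0.9 with Fxyd3 and 32 with Atp1b2, against 134 with Fxyd6, 129 with Atp1b1 and 75 with Atp1b3. The r holds the KO and WT values of the members, known beforehand, so nothing is read from these counts. Nearest to Atp1b2 were Carmil1 (r 0.96), a regulator of actin capping, Poc1b again (0.96) and Ebpl (0.96). Poc1b was 9.72 in KO and 8.32 in WT.

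The other members had neighbours that shared their highest or lowest arrays or, for Atp1b1, a split of the KO arrays. Dhcr7 (r 0.99), which encodes the last enzyme of cholesterol synthesis, Pex2 (0.99), a peroxisome assembly factor, and Prdm4 (0.99) were nearest to Fxyd6. Like it, all were highest on WT replicate 3 and next highest on KO replicate 4. Mgat5 (r 0.99), which branches N-linked glycans, the insulin receptor gene Insr (0.99) and Actr6 (0.98) were nearest to Atp1b1. Insr was 8.42, 8.19, 5.72 and 6.42 on KO arrays, against 8.06, 7.39 and 7.38 on WT arrays, and so had the same split of KO replicates 1 and 2 from 3 and 4. Rnf138 (r 0.999), a ubiquitin ligase, Npat (0.99) and Enpp5 (0.98) were nearest to Atp1b3 and lowest on WT replicate 3. Atp1b3, Rnf138 and Enpp5 were next lowest on KO replicate 4, and Npat on KO replicate 3.

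**Figure D5:**
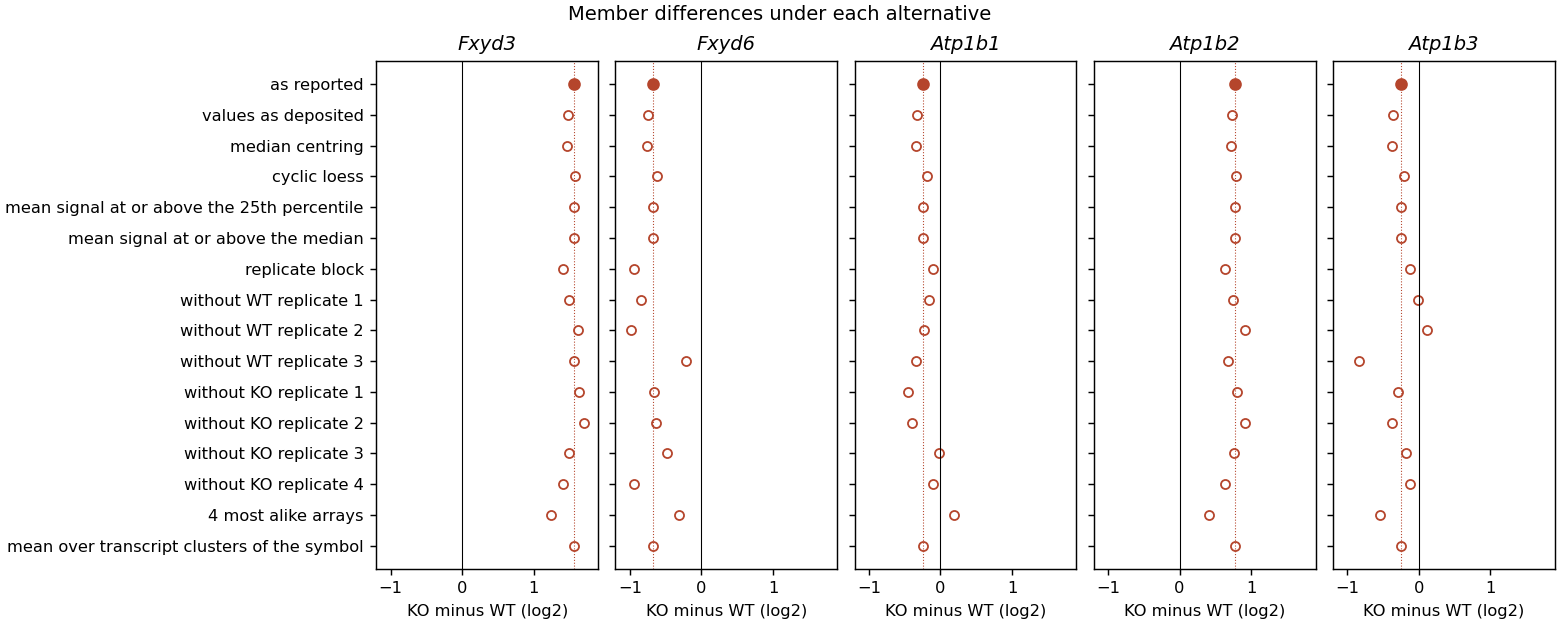
KO minus WT difference (log2, horizontal axes) of each gene as reported (filled, dotted line) and under each alternative (open), which are listed down the left side. All points lie above 0 for Fxyd3 (1.23 to 1.70) and Atp1b2 (0.415 to 0.92) and below 0 for Fxyd6 (-0.98 to -0.21), while Atp1b1 and Atp1b3 cross 0.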

How the data were processed

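Per the labels, biotin-labelled cDNA (cRNA in the methods) from sorted β-cells of 4 KO and 3 WT pools was hybridised. The labels list several amplification kits for every array, and which was used where was not stated. The authors deposited 1 log2 signal per transcript cluster and array. Affymetrix Expression Console and MAS5 stand in the submitters' processing notes, GeneSpring in the methods. Which of them made the values, and the background correction, are not given in the sources used, and detection calls were not used, so dim signals are of unknown standing over background. The number of arrays limits the precision.

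Medians of the deposited values ran from 5.52 to 5.66, and values were quantile normalized. KO was compared with WT by limma 3.58.1 in R 4.3.3 (lmFit, eBayes, two-sided, no covariate) over 22198 transcript clusters, with Benjamini-Hochberg adjustment. The platform annotation named 19565 of them, all matched by gene identifier in RefSeq (GRCm38.p6), used for names and gene order. Where a symbol had several transcript clusters the brightest was used. The fit was tested on simulated data.

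Members and lists were chosen with earlier results of these data known. Named were the members, Rptor, Atp1a4, of each list the genes with an unadjusted p below 0.05 or else the 2 smallest, the first 2 markers of a list where they bear on a member, and the 3 genes most like each member. Some genes of the lists are not reported here. Deviations from group means correlated at 0.16, 0.243 and 0.165 for KO and WT arrays of equal number and at -0.181 to 0.0233 for unequal ones. Such deviations cancel within a group, so that positive values for equal numbers push the others down. What equal numbers share is not given in the labels, so pairing was not established. The fit with a replicate block was an alternative. So were other scalings, filters, variance settings, the methods' t-test, leaving out each array, and keeping only the 4 arrays most alike in earlier results. That t-test is Student's, which the methods name for their data in general and not for the arrays. Here it was run on the quantile normalized values, so it does not repeat the authors' array analysis.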

Additional observations from a re-analysis of the deposited data

Results flagged for a closer look

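In 81 groups of 4 KO values (members, listed genes and marker means) 6 had 1 value far from the other 3, where chance, at about 1 in 20 groups, gives about 4.05, and none was a member. The gap, as a share of the range of the 4 values, was 0.979 for the kinase gene Sgk3, with 6.29 on the array labelled KO replicate 4 and 7.53 to 7.56 on the others. It was 0.861 for the bicarbonate transporter gene Slc4a8, with 12.16 on that array and 8.63 to 9.12 on the others. It was 0.912 for Slc24a3, with 4.82 on that array and 3.97 to 4.04 on the others. For Slc24a5 the share was 0.958: KO replicate 2 had 6.06, and the other 3 KO arrays had 4.83 to 4.89. For Nkain3 it was 0.888, where KO replicate 1 had 3.77 and the rest of the group 3.49 to 3.52. For Atp1a4 it was 0.832, where the same array had 3.25 and the rest of the group 3.44 to 3.48.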

How the results depend on the processing

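Fxyd3, Atp1b2 and Fxyd6 kept the direction of their differences under all 15 alternatives, at 1.23 to 1.70, 0.415 to 0.92 and -0.98 to -0.21. Fxyd3 and Atp1b2 kept groups without overlap in all 13 where this could be counted. The filters, and averaging over the transcript clusters of a symbol, could not change the member differences. Leaving out arrays can hardly make separate groups overlap. Most of the outcomes without overlap were thus set in advance. Atp1b2 moved by more than its SD within groups only on the 4 arrays most alike (0.415). Atp1b1 turned to 0.19 on those 4 arrays, and Atp1b3 to 0.12 without WT replicate 2. With a replicate block, which takes out KO replicate 4, the differences were 1.41 for Fxyd3, 0.63 for Atp1b2, -0.94 for Fxyd6, -0.10 for Atp1b1 and -0.12 for Atp1b3. The numbers of transcript clusters at an unadjusted limma p below 0.05 (484) were 311 and 177 with the filters at percentile 25 and the median, where fewer were tested, and 302 (without WT replicate 3) to 695 when 1 array was left out. No alternative gave any at an adjusted p below 0.05, including the methods' t-test (534 before and 0 after Benjamini-Hochberg adjustment). Those without overlap (872) were 380 with the median filter, 6196 on 4 arrays and 1594 to 2152 with 1 array left out, where fewer arrays make overlap rarer. In the lists, the methods' t-test gave 1 other pump gene (Atp1a4, called with trend and robust variances too), the 4 arrays gave 1 kinase gene (Sik1), and leaving out an array gave 0 to 1 exchange genes. The 1 other P-type pump gene became 0 with median centring, cyclic loess, both filters, the 4 arrays and the replicate block, and 0 to 3 with an array left out; the most, Atp2a1, Atp2a3 and Atp13a1, came without WT replicate 2. The 1 gene was Atp2a1 in place of Atp13a1 with the methods' t-test, with trend and robust variances and without KO replicate 1, and Atp2c1 without WT replicate 1. The replicate block changed no other call.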

Other observations

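Of the 8 calcium pump genes measured among the P-type genes, described after their values were seen, none had an unadjusted limma p below 0.05. The nearest was Atp2a1, a calcium pump of the sarcoplasmic reticulum, dim at 4.31 ± 0.26 in KO and 4.84 ± 0.21 in WT with no overlap (difference -0.54, unadjusted limma p 0.0500464). Atp2a2, the main calcium pump of the endoplasmic reticulum, was 17.62 ± 0.64 in KO and 18.16 ± 0.25 in WT (unadjusted limma p 0.175), and Atp2a3 had a difference of -0.46. Atp2c1, which supplies the Golgi with calcium and manganese, was 10.54, 10.51, 8.19 and 8.93 on KO arrays, against 9.84, 11.02 and 11.80 on WT arrays (unadjusted limma p 0.097), and Atp2c2 had a difference of -0.17. The pumps of the plasma membrane had differences of 0.45 (Atp2b1), 0.08 (Atp2b2) and 0.42 (Atp2b3). Atp2b1 was 10.14 ± 0.12 in KO and 9.69 ± 0.42 in WT with no overlap (unadjusted limma p 0.107). The adjusted p was 1 for each of the 8.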
